A study of Mus musculus with 6 samples.

Results

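The cerebellins Cbln1, Cbln2, Cbln3 and Cbln4, the neurexins Nrxn2 and Nrxn3 and the delta receptor Grid1 were followed as 1 group of 7 genes among the 32371 genes of a read count table from mouse retinal cells. They were chosen by name as synapse organizers, with measured values of the same comparison in view. Cbln4 was selected for being much higher after Ezh2-Y726D than after GFP. The differences of the 7 genes between the groups are therefore a description. Where the thresholds of the fit over all genes are counted for them, the count describes where their values lay and is no test of them. The table came from 6 RNA-Seq libraries, 3 labelled GFP and 3 labelled Ezh2-Y726D. All mice received an AAV2 vector by intravitreal injection, AAV2-GFP in the control group and AAV2-Ezh2-Y726D in the other, and an optic nerve crush (ONC) 2 weeks later. Ezh2-Y726D is a catalytically dead form of Ezh2, the methyltransferase of Polycomb repressive complex 2 that places the repressive mark H3K27me3. Living retinal cells carrying CD90.2, the product of Thy1, were sorted 3 days after the crush to enrich retinal ganglion cells (RGCs), the neurons whose axons form the optic nerve. Per the methods, the mice were adult C57BL/6J animals of both sexes and 6 to 10 weeks old. The sources used here do not say which promoter drove the transgene, or whether a library held cells of 1 mouse or of several. Nothing says that libraries of a group came from separate animals, so the spread between them may be partly technical.

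Cerebellins are secreted proteins of the C1q family that sit in the synaptic cleft and hold both sides of a synapse together. On the presynaptic side they bind neurexins that carry a particular alternatively spliced insert. On the postsynaptic side Cbln1 and Cbln2 bind delta receptors such as that encoded by Grid1, which resemble ionotropic glutamate receptors in sequence but act mainly as adhesion receptors. Cbln4 binds neurexins and the netrin receptor Dcc, and Cbln3 is known to be secreted in complexes with Cbln1. RGCs receive their synapses from amacrine and bipolar cells in the inner plexiform layer of the retina.

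Total counts per library ran from 9333244 to 23782520. The rRNA gene CT010467.1 took 50.9% of all reads of GFP replicate 2 and 52.2% of those of GFP replicate 3, beside 2.55% to 16.1% in the other 4 libraries. Without it, GFP replicates 2 and 3 kept 5745352 and 4460732 counts, so that 1 count was worth 0.129 and 0.166 CPM (counts scaled to a common library size), and no other library kept fewer than 15280377. All levels are in CPM after scaling by the TMM method of edgeR. Ezh2 itself measured 22.7 to 26.4 CPM with GFP and 65.2 to 65.6 CPM with Ezh2-Y726D, where reads from the vector and from the endogenous gene are not separated. Of the RGC markers, Slc17a6 was at 76.2 to 86.1 CPM in the 6 libraries and Pou4f2 at 0.983 to 1.82 CPM. Markers of other retinal cells were also present, with Gnat1 of rods at 929 to 1066 CPM and Gad1 of amacrine cells at 279 to 496 CPM.

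Differentially expressed genes (DEGs) were called over all genes at an adjusted P under 0.05 by edgeR's quasi-likelihood test and a fold change over 1.5. The values of 3 of the 7 genes lay past these thresholds. They were Cbln4, Cbln1 and Cbln2, each higher after Ezh2-Y726D. Of all 18138 genes tested, 2.52% were DEGs with higher and 5.50% were DEGs with lower levels after Ezh2-Y726D, and 0 of the 7 genes were among the latter. At the adjusted P alone, 5 of 7 were higher, beside 13.9% of all genes, and 0 were lower, beside 13.6%. The libraries of the groups did not overlap for 5 genes with higher levels, beside 19.7% of all genes, and for 1 gene with lower levels, beside 18.9%. Since the genes were chosen with these values in view, and Cbln4 for its large difference, these counts follow from the choice and nothing is read from them. With library totals in place of TMM scaling only Cbln4 lay past the thresholds. The median log2 fold change of the 7 genes was 0.44, and that of all genes tested was 0.00. With 3 libraries a group, the smallest 2-sided P that an exact permutation test can reach is 0.1. The plot of levels by library shows all 7 genes on 1 log axis.

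**Figure D1:**
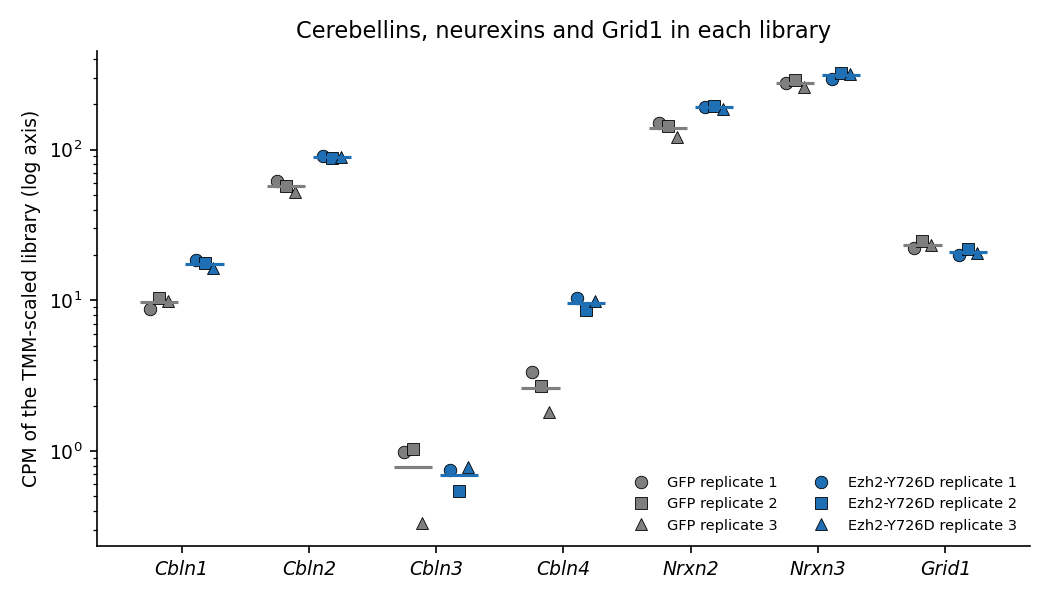
CPM of the TMM-scaled library (log axis) for the 7 genes in each of the 3 GFP and 3 Ezh2-Y726D libraries, with 1 point per library and a bar at the group mean. The groups are apart for Cbln4, Cbln1, Cbln2, Nrxn2, Nrxn3 and, narrowly and in the other direction, Grid1, whereas the Cbln3 libraries overlap.

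Cbln4 (ENSMUSG00000067578, chr2:172036233-172043466 on GRCm38, minus strand, 3 exons in 1 annotated transcript) had the largest difference of the 7 genes. In replicates 1, 2 and 3, it measured 3.33, 2.71 and 1.82 CPM with GFP and 10.4, 8.63 and 9.83 CPM with Ezh2-Y726D, and other genes are given in the same order. Every Ezh2-Y726D library was thus above every GFP library by more than the range within either group. The means were 2.62 ± 0.758 CPM (SD, n = 3) and 9.62 ± 0.911 CPM (SD, n = 3), and the fitted fold change was 3.26, with a log2 value of 1.70 (standard error 0.149, 95% interval 1.40 to 2.01). These levels rest on few reads in the control group, with 95, 21 and 11 counts in the GFP libraries and 277, 176 and 290 counts in the Ezh2-Y726D libraries. The exact 95% Poisson interval of the 11 counts in GFP replicate 3, which covers counting error only, ran from 0.911 to 3.26 CPM. It overlaps the interval of GFP replicate 1, which was 2.696 to 4.07 CPM. In bulk libraries such as these, more cells of a type and more RNA per cell cannot be told apart.

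The promoters of Cbln4 and Cbln3 are shown because the promoter table held these cerebellins, and CpG dinucleotides are marked because Polycomb repressive complex 2 is known to act at promoters rich in them. The difference of Cbln3 between the groups was not detectable, so the windows are not set against each other as those of a changed and an unchanged gene. The sequences are the 250 bases before the start site in RefSeq on GRCm38.p6, written 5′ to 3′ on the strand of the gene, with each CpG in capitals.
Cbln4, chr2:172043467-172043716, minus strand: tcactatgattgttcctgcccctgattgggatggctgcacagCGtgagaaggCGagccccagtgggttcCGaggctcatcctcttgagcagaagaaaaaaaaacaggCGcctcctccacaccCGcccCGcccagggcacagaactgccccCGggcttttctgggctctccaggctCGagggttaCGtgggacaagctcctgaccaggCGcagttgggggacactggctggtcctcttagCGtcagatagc
Cbln3, chr14:55884257-55884506, minus strand: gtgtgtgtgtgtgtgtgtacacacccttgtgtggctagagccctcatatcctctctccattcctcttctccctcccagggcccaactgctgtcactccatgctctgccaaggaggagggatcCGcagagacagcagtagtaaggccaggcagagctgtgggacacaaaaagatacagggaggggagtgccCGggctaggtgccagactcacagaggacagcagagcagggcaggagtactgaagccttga

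The Cbln4 window held 11 CpG dinucleotides and was 60.8% G or C, and 35.6% of the 32851 promoters of the same length in RefSeq held as many. The Cbln3 window held 2 CpG dinucleotides at 57.6% G or C, a number reached by 81.2% of promoters. The median promoter held 6 at 52.4% G or C. Each window was searched on both strands for the letters TATAAA of the TATA box, the letters CCAAT and the letters GGGCGG, of which the last contains a CpG and none contains another. The Cbln4 window held CCAAT and GGGCGG, which 33.8% and 32.7% of promoters hold, but not TATAAA, which 12.4% hold. None of these letters stood in the Cbln3 window. A match is a description of the sequence and not a measured binding site. Nrxn3 had 3 start sites among the promoters, whose windows held 2, 5 and 12 CpG dinucleotides and none of the letters searched. The promoter table held these 3 of the 7 genes. Histone marks and DNA methylation at these windows were not analysed here.

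Cbln1 (ENSMUSG00000031654, chr8:87468405-87472609, minus strand), which in the cerebellum links parallel fibers to Purkinje cells, measured 8.73, 10.3 and 9.95 CPM with GFP and 18.4, 17.8 and 16.3 CPM with Ezh2-Y726D. The groups were widely apart, and the spread within each was small, at 9.67 ± 0.829 CPM and 17.5 ± 1.07 CPM (SD, n = 3 each). The fitted fold change was 1.88, and its log2 value was 0.91 (standard error 0.0947). The 2 shallow GFP libraries held 80 and 60 counts of Cbln1, and both lay above the deeper GFP replicate 1. For Cbln4 the order was the opposite, with GFP replicate 1 the highest of the controls.

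Cbln2 (ENSMUSG00000024647, chr18:86711110-86718283, plus strand), a cerebellin made by many neurons of the forebrain, was the most abundant cerebellin in all 6 libraries. It measured 61.6, 57.0 and 52.1 CPM with GFP and 90.2, 88.1 and 88.7 CPM with Ezh2-Y726D. The Ezh2-Y726D libraries lay close together, at 89.0 ± 1.08 CPM, and the GFP libraries were lower and more spread, at 56.9 ± 4.78 CPM (SD, n = 3 each). The log2 fold change was 0.61 (standard error 0.0522), a fold change of 1.53. This is just above the DEG threshold of 1.5. It was under the threshold without GFP replicate 3, the library with the lowest level, where the log2 fold change was 0.57, and it was 0.53 against the single GFP replicate 1.

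Cbln3 (ENSMUSG00000040380, chr14:55878913-55884392, minus strand) was close to the detection limit. It measured 0.982, 1.03 and 0.332 CPM with GFP and 0.752, 0.539 and 0.780 CPM with Ezh2-Y726D. The Ezh2-Y726D libraries fell inside the range of the GFP libraries. The levels came from 28, 8 and 2 counts against 20, 11 and 23 counts, and the exact 95% Poisson interval of the 2 counts ran from 0.242 to 7.22 counts. The log2 fold change of -0.33 had a standard error of 0.343 and a 95% interval from -1.03 to 0.37, so a difference was not detectable at this depth.

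To compare the cerebellins with each other, CPM was divided by the exonic length of each gene in kilobases. Their summed level per kilobase was 25.5, 24.2 and 22.0 CPM per kb in the GFP libraries and 40.9, 39.4 and 39.6 CPM per kb in the Ezh2-Y726D libraries, a ratio of means of 1.67. The sum was therefore higher in every Ezh2-Y726D library. Cbln4 made up 4.50%, 3.85% and 2.86% of this sum in the GFP libraries and 8.76%, 7.55% and 8.56% in the Ezh2-Y726D libraries, or 3.74% ± 0.825 and 8.29% ± 0.650 (SD, n = 3 each). The share of Cbln2 was 82.2% ± 1.12 in the GFP libraries and 76.9% ± 0.751 in the Ezh2-Y726D libraries (SD, n = 3 each). Cbln1 held nearly the same share, with 13.4% ± 1.90 and 14.4% ± 0.727 (SD, n = 3 each), and its libraries overlapped. Cbln2 was thus the main cerebellin in both groups, and Cbln4 remained a small part of the family where its level was highest. The plot of family levels shows these sums.

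**Figure D2:**
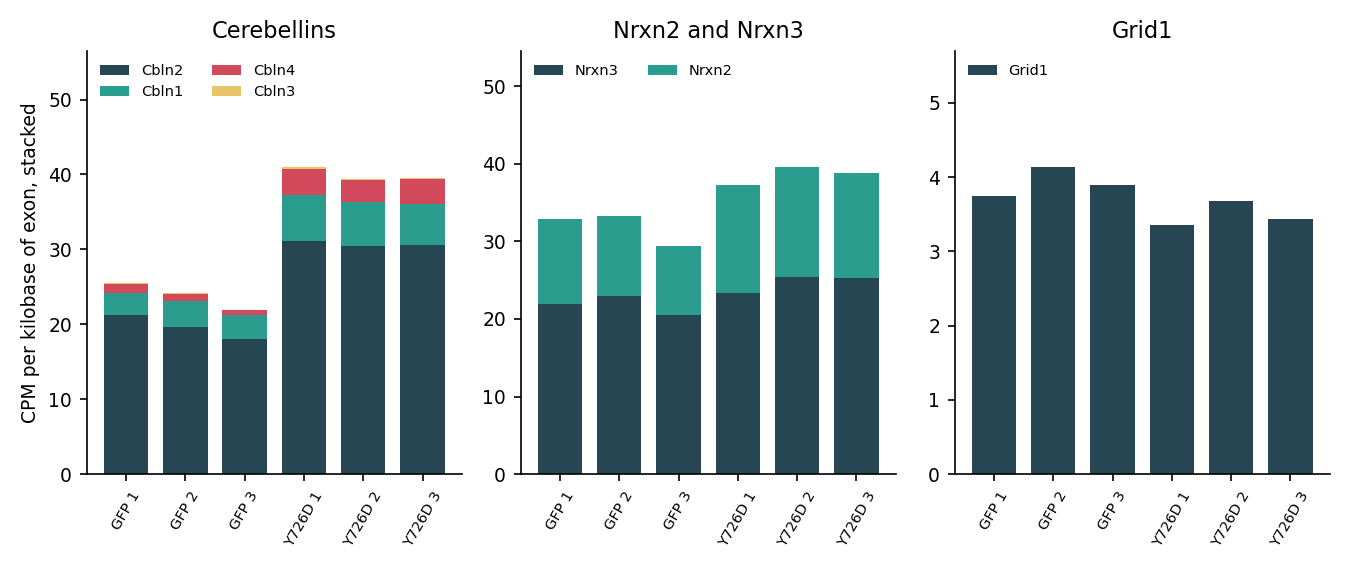
Level per kilobase of exon (CPM per kb, linear axis from 0) of the 4 cerebellins, of Nrxn2 with Nrxn3 and of Grid1, stacked by gene for each of the 6 libraries. The cerebellin sum lies at 22.0 to 25.5 in the GFP libraries and 39.4 to 40.9 in the Ezh2-Y726D libraries, and most of it is Cbln2.

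Neurexins are presynaptic receptors that exist as long and short forms from separate promoters, and counts per gene do not separate these forms or the spliced insert that cerebellins bind. Nrxn2 (ENSMUSG00000033768, chr19:6418731-6544169, plus strand) measured 150, 143 and 122 CPM with GFP and 192, 194 and 186 CPM with Ezh2-Y726D. All Ezh2-Y726D libraries were higher, with GFP replicate 3 the lowest of the 6. The means were 138 CPM and 191 CPM, with SDs of 10.8% and 2.26% of the mean (n = 3 each), and the log2 fold change was 0.44 (standard error 0.050), a fold change of 1.36. Of its exonic bases, 6.44% are shared with Slc22a12 and Gm14964, and reads there cannot be assigned with certainty.

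Nrxn3 (ENSMUSG00000066392, chr12:88722876-90334935, plus strand) was the gene of the group with the most reads. It measured 277, 289 and 259 CPM with GFP and 294, 321 and 319 CPM with Ezh2-Y726D. The groups were apart by a narrow gap, between 289 and 294 CPM. The means were 275 CPM and 311 CPM, with SDs of 5.45% and 4.84% of the mean (n = 3 each), and the log2 fold change was 0.18 (standard error 0.0443). Of its exonic bases, 3.48% are shared with Gm37980.

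The summed level per kilobase of Nrxn2 and Nrxn3 was 31.8 ± 2.15 CPM per kb in the GFP libraries and 38.5 ± 1.18 CPM per kb in the Ezh2-Y726D libraries (SD, n = 3 each), a ratio of means of 1.21 beside 1.67 for the cerebellins. Nrxn3 made up 66.8%, 68.9% and 70.0% of this sum in the GFP libraries and 62.7%, 64.4% and 65.3% in the Ezh2-Y726D libraries. Its share was thus lower in every Ezh2-Y726D library, and Nrxn2 made up the rest. With the longest transcript as length, the mean sums were 55.4 CPM per kb with GFP and 67.9 CPM per kb with Ezh2-Y726D. The share of Nrxn3 was then 60.7%, 63.0% and 64.2% in the GFP libraries and 56.3%, 58.2% and 59.1% in the Ezh2-Y726D libraries.

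Grid1 (ENSMUSG00000041078, chr14:34820108-35583379, plus strand), which encodes the delta receptor GluD1, measured 22.3, 24.6 and 23.2 CPM with GFP and 20.0, 22.0 and 20.5 CPM with Ezh2-Y726D. Among the 7 genes it alone had every Ezh2-Y726D library below every GFP library, by a gap smaller than the SD of either group. The means were 23.4 ± 1.17 CPM and 20.8 ± 1.00 CPM (SD, n = 3 each). The log2 fold change was -0.15 (standard error 0.0716, 95% interval -0.30 to -0.0034).

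Ordered by level per kilobase in the GFP libraries, Nrxn3 came first with 21.8 ± 1.19 CPM per kb (SD, n = 3). It was followed by Cbln2 with 19.7, Nrxn2 with 10.02, Grid1 with 3.92, Cbln1 with 3.18, Cbln4 with 0.903 and Cbln3 with 0.161 CPM per kb. By exonic length the libraries of Nrxn3 and Cbln2 overlapped, and every other pair of neighbours was separate. In the Ezh2-Y726D libraries Cbln2 was first with 30.7 ± 0.373 CPM per kb (SD, n = 3), ahead of Nrxn3 with 24.7 and Nrxn2 with 13.8. Cbln1 with 5.76 CPM per kb was then above Grid1 with 3.49, and Cbln4 with 3.32 CPM per kb was not separate from Grid1, since their libraries overlapped. Cbln3 was last with 0.142 CPM per kb. The order of Cbln2 and Nrxn3 in the Ezh2-Y726D libraries was the other way round when levels were divided by the longest transcript. With that length the GFP means were 34.7 for Nrxn3, 22.3 for Cbln2 and 20.7 CPM per kb for Nrxn2. The gap between Cbln2 and Nrxn2 in the GFP libraries thus depended on the length used.

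A list of 45 genes was counted that held binding partners and scaffold proteins of these genes, and also ligands and scaffolds of those partners. Of the 45, 44 were found and 43 tested, and Nxph2 had too few counts. With edgeR's quasi-likelihood test and Benjamini-Hochberg adjustment, 25 of the 43 rose and 5 fell after Ezh2-Y726D, beside 13.9% and 13.6% of all genes, but most changes were small, with a median log2 fold change of 0.23. Of the 43, 2 were DEGs with higher levels and 0 were DEGs with lower levels, beside 2.52% and 5.50% of all genes. With counts thinned to the shallowest library, 11 of the 43 were higher and 0 lower at the adjusted P, and 1 was a DEG. In that setting 709 of all 15135 genes tested were higher and 724 lower. Lrrtm1 (chr6:77242689-77257791, plus strand), a postsynaptic leucine-rich repeat protein that binds neurexins, measured 10.3, 10.6 and 7.96 CPM with GFP and 16.0, 17.7 and 15.3 CPM with Ezh2-Y726D, with a log2 fold change of 0.71 and a standard error of 0.0976 (adjusted P = 1.58e-06 by the same test). Tenm1 (chrX:42527866-43429126, minus strand), a teneurin that binds latrophilins, measured 32.4, 35.9 and 31.3 CPM with GFP and 50.0, 52.8 and 54.5 CPM with Ezh2-Y726D, with a log2 fold change of 0.67 and a standard error of 0.0615 (adjusted P = 1.48e-09). For both genes the groups did not overlap. With library totals in place of TMM scaling, edgeR's test called 0 of the partners at the adjusted P, and 17 were higher and 0 lower at an unadjusted P under 0.05. Of all 18138 genes, 1985 were higher and 126 lower at that unadjusted P, with a median log2 fold change of 0.49.

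By role, the latrophilins with their teneurin and FLRT ligands had 8 of 10 higher and 1 lower at the adjusted P, with a median log2 fold change of 0.33. Among receptors of cerebellins and C1q-like proteins, 2 of 3 were higher, namely the C1q-like receptor Adgrb3 with a log2 fold change of 0.33 and the Cbln4 receptor Dcc with 0.26. Neo1, the neogenin receptor related to Dcc, was at 268 and 263 CPM on average and did not pass the test. Of the scaffold and cis partners, 6 of 10 were higher and 1 was lower, and of the postsynaptic adhesion partners 6 of 12 were higher and 2 were lower. Among the other secreted and surface ligands, 3 of 8 were higher, C1ql1, C1ql2 and Car11, at log2 fold changes of 0.37, 0.34 and 0.36, and 1 was lower. The 5 partners that fell were Igsf21, a partner of Nrxn2 at inhibitory synapses, with -0.33, the neurexin ligand Car10 with -0.23, the calsyntenin Clstn3 with -0.20, the scaffold protein Lin7c with -0.14 and the latrophilin Adgrl2 with -0.13. The number lower was 3 without GFP replicate 1, 3 without Ezh2-Y726D replicate 1, 3 with DESeq2, 3 with no filter on low counts and 0 with counts thinned to the shallowest library. The plot of log2 fold changes sets the 7 genes beside these partners.

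**Figure D3:**
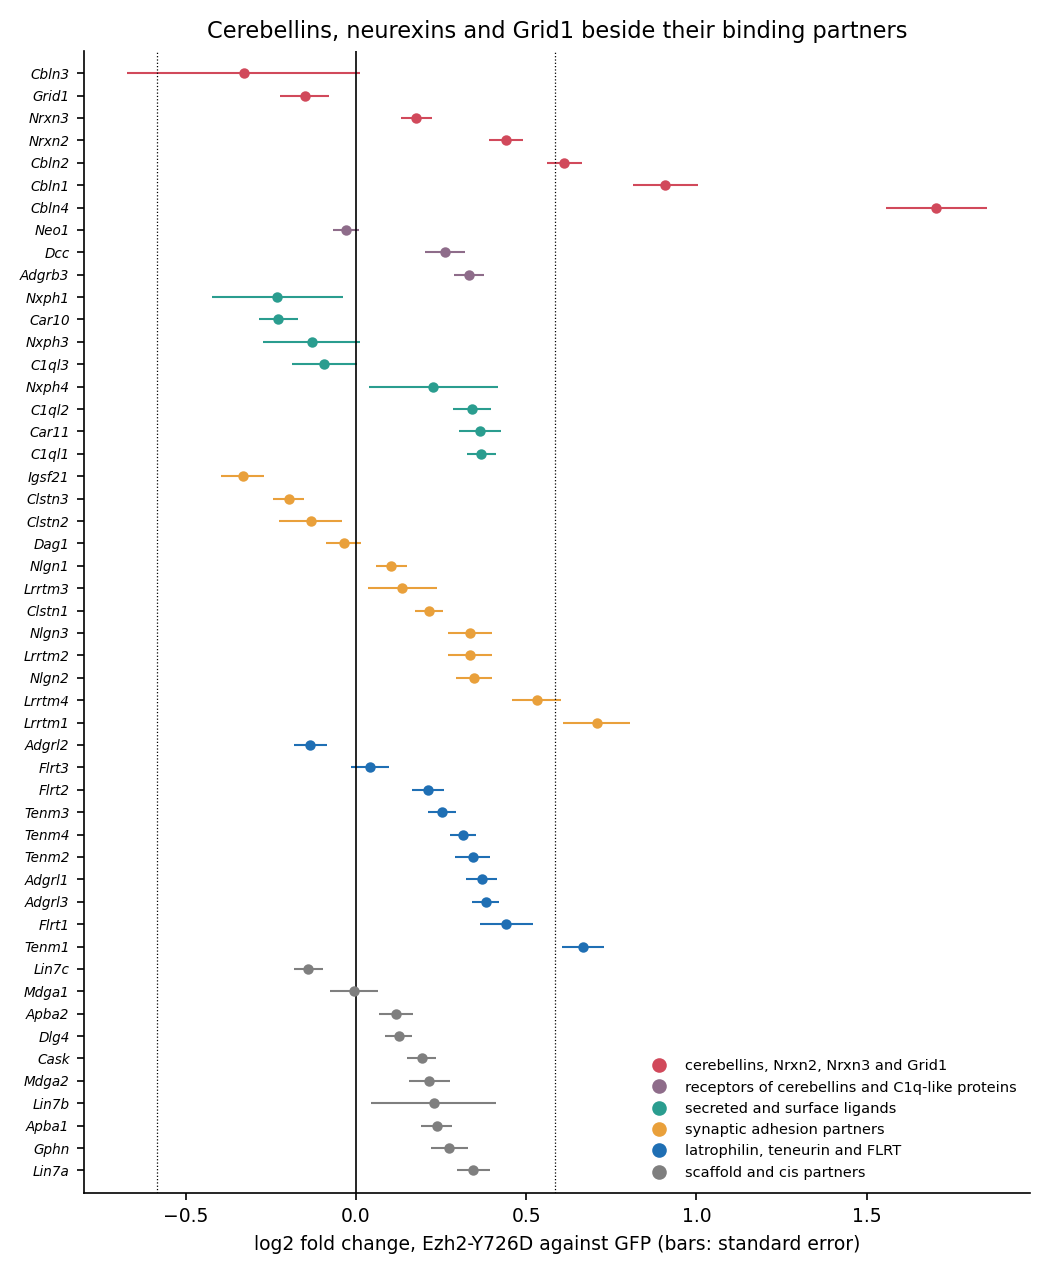
Log2 fold change of Ezh2-Y726D against GFP for the 7 genes and the partners tested, colored by role, with bars of 1 standard error and dotted lines at the fold change threshold of 1.5 in either direction. Cbln4 at 1.70 and Cbln1 at 0.91 lie farthest to the right, and Lrrtm1 and Tenm1 are the only partners past the upper dotted line.

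Markers of several cell types differed between the same libraries. At the adjusted P, 13.9% of all genes tested were higher and 13.6% were lower after Ezh2-Y726D. Of 8 amacrine cell markers, 6 were tested, and all 6 were higher after Ezh2-Y726D at the adjusted P of edgeR's quasi-likelihood test, with log2 fold changes of 0.52 to 0.74 and a median of 0.65. The summed level of all 8 ran from 631 to 705 CPM in the GFP libraries and from 1068 to 1111 CPM in the Ezh2-Y726D libraries. The markers of cholinergic amacrine cells, Chat and Slc18a3, were too low to be tested. Both were at 0 counts in GFP replicate 3 and under 0.8 CPM in every library, and higher in every Ezh2-Y726D library than in every GFP library, with means of 0.246 and 0.553 CPM for Chat and 0.113 and 0.452 CPM for Slc18a3. The 8 RGC markers ran from -0.43 for Pou4f2 to 0.41 for Pou4f1 with a median log2 fold change of -0.03, 2 were higher and 0 lower at the adjusted P, and their sums were 418 to 430 CPM and 413 to 449 CPM. Of 7 bipolar cell markers 6 were lower and 1 was higher, with sums of 947 to 958 CPM and 779 to 799 CPM. All 5 cone markers were lower, with sums of 344 to 360 CPM and 228 to 238 CPM. Of 7 markers of microglia and macrophages 5 were lower and 1 was higher, with sums of 609 to 684 CPM and 372 to 434 CPM. All 4 T cell markers were lower, and of the 5 rod markers 1 was higher. The log2 fold change of Cbln2 lay within the range of the 6 tested amacrine markers and that of Nrxn2 below it, whereas those of Cbln4 and Cbln1 lay above the highest of these 6. The part of these cell types in the levels of the cerebellins, neurexins and Grid1 was not tested. The plot of marker lists sets these values side by side.

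**Figure D4:**
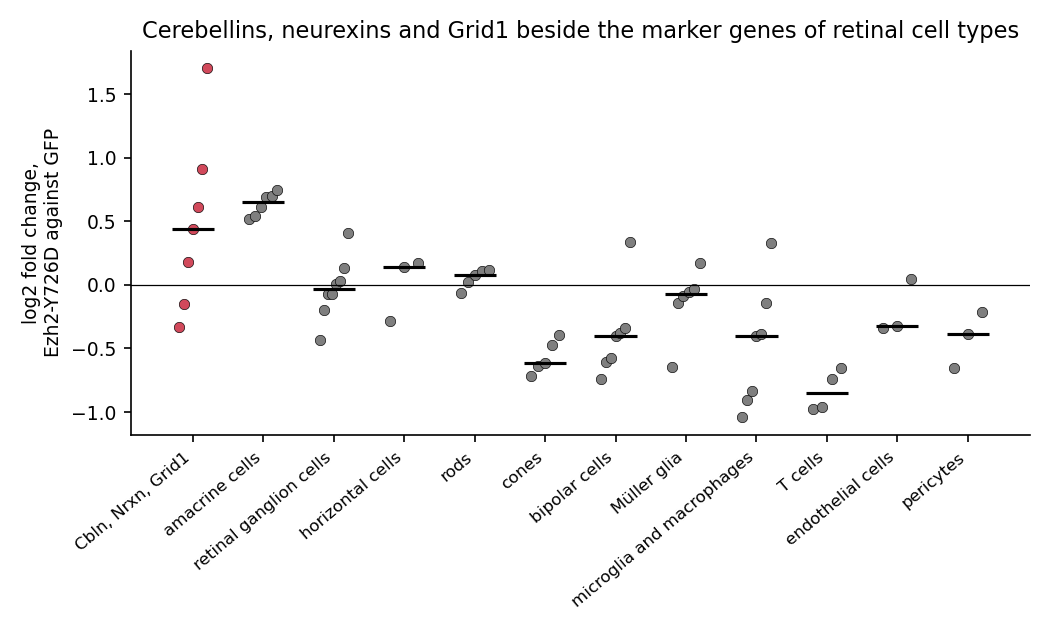
Log2 fold change of Ezh2-Y726D against GFP for the 7 genes and for the tested markers of each retinal cell type, with 1 point per gene and a bar at the median. The 6 tested amacrine markers lie at 0.52 to 0.74, between Nrxn2 at 0.44 and Cbln1 at 0.91, and the RGC markers spread from -0.43 to 0.41 around a median of -0.03.

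The genes whose levels ran most like those of Cbln4 over the 6 libraries were found from log2(CPM + 0.5) centred on the mean of each gene, by the root mean square difference from Cbln4 among 16052 genes with a mean of at least 1 CPM. Htr2c, the serotonin receptor 2C, was nearest with a difference of 0.198, and measured 2.91, 2.45 and 1.66 CPM with GFP and 6.43, 6.37 and 7.29 CPM with Ezh2-Y726D. Gm45540 came next with 0.223, followed by the collagen gene Col12a1 with 0.231, the vomeronasal receptor gene Vmn2r89 with 0.257 and the growth factor gene Fgf10 with 0.270. Vmn2r89 belongs to a large family of similar genes, so its counts are uncertain. Fgf10 had a GFP mean of 0.905 CPM and reached the mean of 1 CPM through the Ezh2-Y726D libraries, at 3.04 CPM. These genes were picked for likeness in each library, so what they share with Cbln4 is set by the choice. Cbln3 was under the mean of 1 CPM and was not compared. The 5 others of the 7 genes were less like Cbln4, with a difference of 0.527 for Cbln1, which stood at position 114, and of 0.562 for Cbln2, at position 173. Nrxn2 stood at position 506, Nrxn3 at 2876 and Grid1 at 12412. The measure covers 6 libraries of 2 groups, so likeness is mainly a difference between the groups of similar size, and it is given without a test. The plot of centred levels shows Cbln4 beside these genes.

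**Figure D5:**
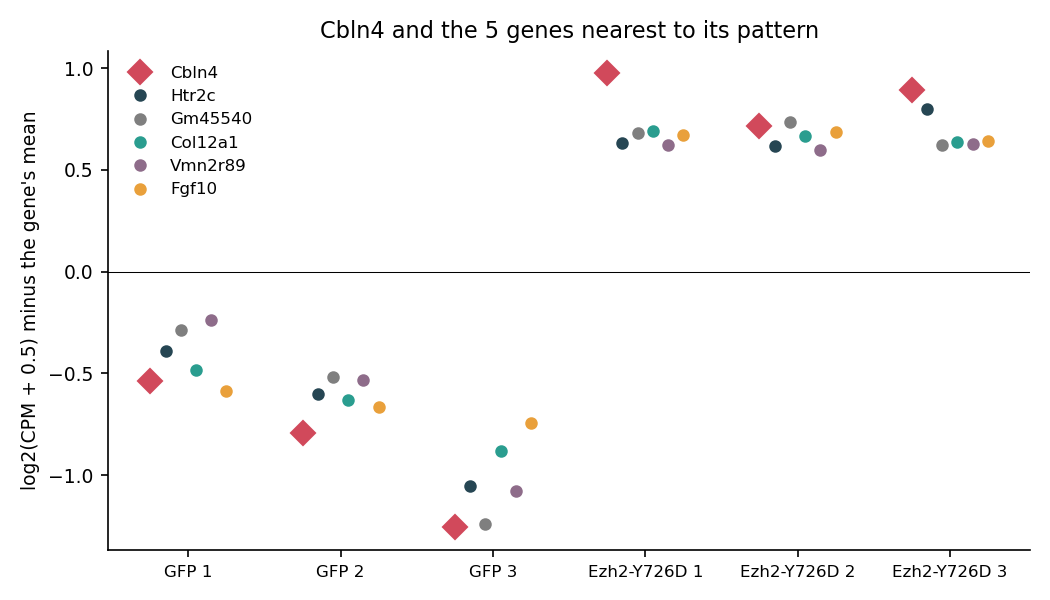
Centred log2(CPM + 0.5) in each library for Cbln4 and the 5 genes with the smallest root mean square difference from it, with 1 point per gene and library. All points of the GFP libraries lie below 0 and all points of the Ezh2-Y726D libraries above 0, and the lowest Cbln4 point is GFP replicate 3.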

How the data were processed

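The authors deposited read counts per gene for 6 libraries, whole numbers without normalization, and all value columns were used (0 left out). The submitters' processing notes name STAR 2.7.0d and GRCm38. The annotation, the counting tool and the use of strand are not given in the sources used here, so counts of overlapping genes are uncertain. Of 32371 identifiers 32325 received a symbol, and coordinates and exon lengths are those of GENCODE vM21 on GRCm38, which may not be the annotation of the authors.

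Counts were scaled by TMM (factors 0.647 to 1.31), filtered with filterByExpr (10 counts, total of 15) and tested with edgeR 4.0.16's quasi-likelihood test in R 4.3.3, with Benjamini-Hochberg adjustment over 18138 genes. Standard errors were obtained by dividing log2 fold changes by the root of the F statistic. In counts simulated for these 18138 genes, 175 of 200 genes changed by a log2 fold change of 1 were called, with 5 unchanged genes. The chi-square per degree of freedom was 1.49 to 3.03 within and 7.45 to 14.0 between groups, so no library was a copy. P values measure only the spread between these libraries.

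The 7 genes, the partner list, the marker lists (amacrine cells, RGCs, bipolar cells, rods, cones, Müller glia, microglia and macrophages, T cells, endothelial cells, pericytes, horizontal cells) and the tests were chosen with earlier results of these data known. Named genes were the 7, partners past the DEG thresholds and the 5 genes most like Cbln4, and some further items are not reported here. Other partners and markers were named after their values were seen. At the adjusted P, Müller glia had 1 of 6 markers higher and 2 lower, beside 13.9% and 13.6% of all genes. Endothelial cells had 0 and 1 of 3, pericytes 0 and 3 of 3, and horizontal cells 0 and 0 of 3. Alternatives were RLE factors, library totals with and without CT010467.1, DESeq2 1.42.0, other filters and fold thresholds, a replicate block, each library left out, and thinned counts.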

Additional observations from a re-analysis of the deposited data

How the results depend on the processing

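Of all genes, 1455 were DEGs, with 1403 under a replicate block, 1048 with DESeq2 and 1207 to 1404 with any 1 library left out. The count was 4988 without a fold change threshold, 443 at a fold change over 2, 65 with library totals (46 higher and 19 lower, against 457 and 998 with TMM) and 656 with counts thinned to the shallowest library. In these 4 settings the 7 genes gave 5, 1, 1 and 3 DEGs in place of 3, and the partners 30, 0, 0 and 1 in place of 2. At the adjusted P alone the thinned counts called 11 partners higher and 0 lower (20 and 0 unadjusted), and library totals called 0 (17 and 0 unadjusted). Of all 15135 genes, the thinned counts called 709 higher and 724 lower (1634 and 1591 unadjusted). Of all 18138 genes, library totals called 46 higher and 19 lower (1985 and 126 unadjusted). The 7 genes gave 2 to 3 DEGs and the partners 2 with any 1 library left out, where 24 to 25 partners were higher and 3 to 5 lower at the adjusted P, and Cbln2 was the call lost without GFP replicate 3. Leaving out GFP replicates 2 and 3 together, chosen after seeing the data, leaves 1 GFP library that is assumed to vary like the Ezh2-Y726D libraries, so its counts say nothing about stability. It gave 1401 DEGs, 2 of them among the 7 genes, and 24 partners higher and 3 lower at the adjusted P. Cbln4 had a log2 fold change of 1.60 to 2.06 with any 1 library left out, the highest without GFP replicate 1, and 1.54 against the single GFP replicate 1. Library totals moved the median over all genes to a log2 fold change of 0.49 and that of Cbln4 to 2.22, or 1.73 relative to this median. There Grid1 was at 0.35 and Cbln3 at 0.10, but at -0.15 and -0.39 relative to the median. Over the other settings in which they were fitted, Cbln1 lay between 0.69 and 1.00, Nrxn2 between 0.34 and 0.52, Nrxn3 between 0.14 and 0.22, Grid1 between -0.27 and -0.10 and Cbln3 between -0.50 and -0.04. Cbln3 was not tested with 10 counts required in every library or with thinned counts. With the longest transcript as length, 12 of 14 positions in the order by level were the same. Same-numbered libraries had correlations of 0.106, 0.0416 and 0.0306 of their deviations, and every library correlated best with its own number, a hint from the data only. The replicate block gave 3 DEGs among the 7 genes and 2 among the partners. In the shallow GFP replicates 2 and 3, Cbln3 had 8 and 2 counts and Cbln4 had 21 and 11, the fewest of the 7 genes.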
